A study of Mus musculus with 8 samples.

Results

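The nuclei described here are cortical excitatory neurons that carry Foxp2, a forkhead transcription factor that in the adult mouse cortex marks corticothalamic neurons of layer 6. They were chosen from the deposited table of all cell types as nuclei annotated as neurons with at least 2 UMIs of Slc17a7, the vesicular glutamate transporter of cortical and hippocampal neurons, and at least 5 UMIs of Foxp2. They also had to hold no more than 1 UMI of Gad1 and Gad2 together, no more than 2 of Prox1 and no more than 2 of Cux2, which leaves out inhibitory, dentate granule and upper-layer neurons. A UMI is a molecular tag that counts 1 captured transcript. This rule kept 1113 nuclei of 61949 in all, and of 45141 neurons. They are called layer 6 Foxp2 neurons below.

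The nuclei came from brain hemispheres of 6-month-old C57BL6/J mice without cerebellum and olfactory bulb, profiled by 10x 3′ single-nucleus RNA sequencing. Mice of 4 genotypes gave 2 libraries each: wild type (WT), Cnp-/-, 5xFAD and Cnp-/- 5xFAD. Cnp encodes 2′,3′-cyclic nucleotide 3′-phosphodiesterase, an enzyme of myelinating oligodendrocytes, and Cnp-/- mice carry the deletion in every cell. 5xFAD mice carry human transgenes of familial Alzheimer's disease, mutant APP among them, under the Thy1 promoter, which is active in neurons, and deposit amyloid. Per the study's methods, controls were littermates or a control line generated from the initial F1 generation. Which of these held for these libraries is not given, and no sex is given per library. The study as a whole used animals of both sexes, and its reporting summary gives females for the crosses with Cnp-/-, which the sex-linked transcripts below go against. The study asked how a myelin defect bears on amyloid pathology. The values below describe how transcript levels summed over these nuclei differed between the genotypes. The study's reporting summary gives 2 animals pooled per replicate for its single-cell work, while its methods do not repeat this for these hemispheres. The p-values therefore measure the spread between libraries, which may be pools.

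Layer 6 corticothalamic neurons send axons to the thalamus and collaterals to the reticular nucleus, and set the gain of thalamic input to the cortex. They arise early in cortical development, when Tbr1, Sox5, Fezf2 and Tle4 act together in separating deep-layer projection types. Their neighbours in the deep layers are the near-projecting and extratelencephalic neurons of layer 5, the intratelencephalic neurons and the subplate-derived neurons of layer 6b. Upper-layer neurons, marked by Cux1 and Cux2, project within the cortex.

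WT replicate 1 held 53 layer 6 Foxp2 neurons and WT replicate 2 held 124. Cnp-/- replicates 1 and 2 held 170 and 96, 5xFAD replicates 1 and 2 held 168 and 103, and Cnp-/- 5xFAD replicates 1 and 2 held 175 and 224. Their median was 11207 UMIs and 3908 genes per nucleus, and the summed profile of a library held between 873800 and 2827381 UMIs. A count of 3 in such a profile equals 1.06 to 3.43 CPM, the counts per 1000000 UMIs of a profile that are the unit of all levels below. WT replicate 1 and Cnp-/- replicate 2, which had the fewest UMIs, stood apart from the other 6 libraries on the leading principal components, which held 31.2% and 20.2% of the variance of the member profiles. The shares and the gene tests that involve the members were therefore also run without both, and the values are given where they change a result. The genotype fits of upper-layer neurons alone were not. No cell barcode was shared between members of different libraries, and 23 members had a barcode that also occurs in another library. Xist was at 0 to 1.14 CPM and the Y-linked Uty at 110 to 152 CPM in the members of all 8 libraries, the pattern of male mice. This goes against the females given for the Cnp-/- crosses, and no comparison here uses sex. The genotype labels held in the oligodendrocytes, where Cnp stood at 219 to 321 CPM in the 4 libraries with the gene and at 23.1 to 32.8 CPM in the 4 Cnp-/- and Cnp-/- 5xFAD libraries. In neurons Cnp was low and gave no such check, at 9.99 to 12.9 CPM with the gene and 8.37 to 10.2 CPM without it.

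Foxp2 itself chose these nuclei, so its level is a description. It ran from 573 to 801 CPM over the 8 libraries, with a mean of 678 ± 85.3 (SD, n = 8), and from 4.87 to 8.16 CPM in the upper-layer neurons defined below. Per nucleus the median was 8 UMIs of Foxp2, with a range of 5 to 38. The threshold cuts through a continuous range. It let in 194 nuclei with exactly 5 UMIs, at a median depth of 9665 UMIs, and left out 246 nuclei with 4, at a median depth of 9705.5 UMIs. A further 7318 nuclei that met every other part of the rule held no Foxp2 UMI.

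Of 11 known markers of layer 6 corticothalamic neurons 5 were present in over 95% of these nuclei, and the other 6 in 9.97% to 62.3%. Hs3st4, a heparan sulfate 3-O-sulfotransferase, was found in 98.9% of members, the SOX factor Sox5 in 97.3%, Zfpm2, a cofactor of GATA factors, in 96.5%, the kainate receptor subunit Grik3 in 96.3% and the corepressor Tle4 in 96.0%. In the same order they were found in 77.5%, 89.4%, 63.4%, 75.3% and 50.3% of the nuclei with Fezf2 described below. The shares of upper-layer neurons were 40.0%, 78.2%, 42.7%, 26.4% and 37.2%. Syt6, a synaptotagmin, was found in 55.5% of members and Tbr1 in 30.5%. The neurotensin receptor Ntsr1 was found in 14.3% and Rprm in 9.97%. The 11 corticothalamic markers summed to between 3793 and 5429 CPM in members. The sum was 686 to 876 CPM in upper-layer neurons and 1588 to 2374 CPM in the nuclei with Fezf2, and neither overlapped the members.

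Markers of inhibitory neurons, oligodendrocyte precursors and endothelial cells were near the lowest detectable level, and those of several other cell types were not. Slc32a1, Pvalb, Sst, Vip and Dlx6os1 of inhibitory neurons summed to 1.41 to 10.3 CPM, and Pdgfra, Vcan and Cspg4 of oligodendrocyte precursors to 0 to 11.7 CPM. The endothelial markers reached no more than 3.07 CPM. The layer 6b markers Ccn2, Cplx3, Nxph4 and Moxd1 summed to 3.43 to 24.0 CPM. Oligodendrocyte transcripts summed to 92.7 to 242 CPM, which was close to the 110 to 192 CPM of upper-layer neurons. Microglial markers summed to 46.9 to 65.8 CPM against 41.9 to 65.1 in upper layers, most of it P2ry12, which was found in 33.0% of members and 44.3% of upper-layer neurons. Hippocampal markers summed to 149 to 365 CPM against 385 to 475, and near-projecting markers to 154 to 285 against 191 to 519. The ranges of these 3 lists in the members overlapped those of upper-layer neurons or lay below them. Striatal and astrocyte markers were higher, and their values stand with the calls below.

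A minority of the nuclei carried transcripts of subcortical excitatory neurons. Slc17a6, the glutamate transporter of thalamus and brainstem, or Tcf7l2, a transcription factor of thalamic neurons, was detected in 103 members, which is 9.25% of them. The share was 24.5% and 15.3% in WT replicates 1 and 2, 6.47% and 5.21% in Cnp-/-, 14.9% and 6.80% in 5xFAD, and 9.14% and 3.12% in Cnp-/- 5xFAD. Tcf7l2 stood at 110 and 42.4 CPM in the WT libraries and at 1.06 to 10.8 CPM in the other 6. Libraries with Cnp thus tended to hold more such nuclei than those without it, although the ranges overlap. Slc17a6 alone was found in 5.21% of members, in 7.72% of upper-layer neurons and in 6.22% of the nuclei with Fezf2 described below, so its share was lower in the members than in either of these groups. Tcf7l2 was found in 5.93% of members, against 3.24% and 3.33%. The 5 thalamic markers Slc17a6, Tcf7l2, Lef1, Prkcd and Rora summed to 618 to 949 CPM in members. The sum was 939 to 1224 CPM in upper-layer neurons and 765 to 1326 CPM in the nuclei with Fezf2. Slc17a6 gave 81 and Tcf7l2 251 of the 1.54e+07 UMIs of all members, so the sum came mostly from the other markers. It therefore says little about the nuclei with Slc17a6 or Tcf7l2. Tcf7l2 itself was higher in members than in upper-layer neurons, as given below. Gene tests that involve the members were also run without the nuclei with Slc17a6 or Tcf7l2. These were left out of both sides where groups of nuclei were compared. The shares and the genotype fits of upper-layer neurons alone were not run this way. For comparisons between groups of nuclei that setting was chosen after seeing the data, as was leaving out both libraries that stood apart.

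The layer 6 Foxp2 neurons made up between 0.866% and 3.76% of the neurons of a library. The share was 0.866% (95% Wilson interval 0.663 to 1.13) and 2.24% in WT, 2.88% and 1.40% in Cnp-/-, 3.76% and 2.00% in 5xFAD, and 3.53% and 3.62% in Cnp-/- 5xFAD. The interval covers counting error only. Both Cnp-/- 5xFAD libraries lay above both WT libraries, whereas the ranges of Cnp-/- and of 5xFAD overlapped that of WT. The same held for the share of upper-layer neurons, which were 5.98% and 10.4% of the neurons in WT, 7.04% and 4.53% in Cnp-/-, 12.5% and 6.73% in 5xFAD, and 13.6% and 13.5% in Cnp-/- 5xFAD, and glutamatergic neurons as a whole ran from 24.9% in WT replicate 1 to 51.1% in Cnp-/- 5xFAD replicate 2. The mean share was 3.23% ± 0.824 (SD, n = 4) with 5xFAD and 1.85% ± 0.891 (SD, n = 4) without it, a difference of 1.38 percentage points (two-sided exact permutation test, p = 0.0857, Benjamini-Hochberg adjusted over both factors 0.171). Without WT replicate 1 and Cnp-/- replicate 2 it was 0.672 points (exact p = 0.4, where the smallest possible is 0.133). It was 2.86% ± 1.03 (SD, n = 4) without Cnp and 2.22% ± 1.19 (SD, n = 4) with it, a difference of 0.644 points (exact p = 0.457, adjusted 0.457). The smallest p that 4 against 4 libraries allow is 0.0286. Fewer cells of a type and less RNA per cell cannot be told apart by a threshold on UMIs.

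Depth differed between libraries, with the median neuron at 6474 UMIs in Cnp-/- replicate 2 and at 11309 in 5xFAD replicate 1. Every neuron was then thinned to 5000 UMIs by a random draw that was not repeated. The Foxp2 minimum was set to 2, while the limits on the other genes of the rule stayed at the same UMIs. The nuclei chosen were therefore not the same set, and Cnp-/- replicate 2 had 104 of them against 96 members. The shares were 1.07% and 1.89% in WT, 2.77% and 2.40% in Cnp-/-, 2.28% and 1.97% in 5xFAD, and 3.00% and 3.04% in Cnp-/- 5xFAD. On this scale the 4 libraries without Cnp lay above the 4 with it, at 2.80% ± 0.296 against 1.80% ± 0.515 (SD, n = 4 each). The nearest were Cnp-/- replicate 2, with 104 of 4338 thinned neurons, and 5xFAD replicate 1, with 95 of 4167. The difference of 1.00 point had the smallest p that the exact permutation test can give, 0.0286, and an adjusted p of 0.0571. The 5xFAD difference was 0.543 points on the same scale (exact p = 0.286). Between 296 and 2500 neurons per library were too shallow to be thinned and were left out, the most in Cnp-/- replicate 2 (2500 of 6838).

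**Figure D1:**
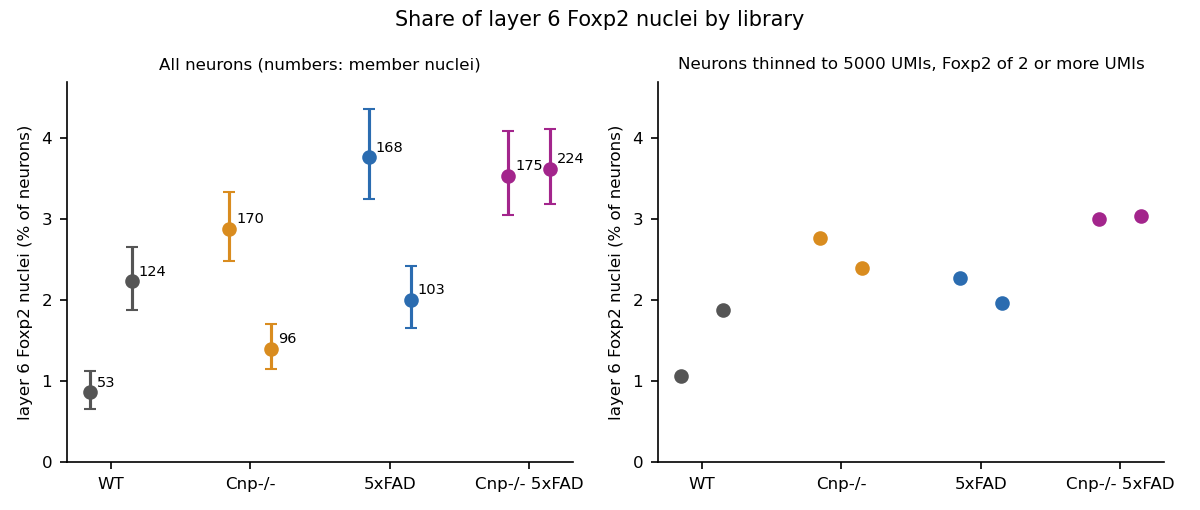
Share of layer 6 Foxp2 neurons among the neurons of each of the 8 libraries, in percent. The left panel shows the deposited depth with 95% Wilson intervals and the number of members, from 0.866% in WT replicate 1 to 3.76% in 5xFAD replicate 1. The right panel shows neurons thinned to 5000 UMIs with a Foxp2 minimum of 2, where the 4 libraries without Cnp lie between 2.40% and 3.04% and the 4 with Cnp between 1.07% and 2.28%.

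To see what these neurons express beside Foxp2, they were set against upper-layer neurons of the same libraries. Upper-layer neurons were 4078 nuclei (310 to 834 per library) that met the same limits on Slc17a7, Gad1, Gad2 and Prox1, with at least 5 UMIs of Cux2 and no more than 2 of Foxp2. Their median depth was 13948.5 UMIs per nucleus, above the 11207 of the layer 6 nuclei. The 6 genes of these rules were left out. A gene was called when the edgeR quasi-likelihood test with the library as a block gave a Benjamini-Hochberg false discovery rate (FDR) under 0.05 and the fold change was at least 2. This held for 1296 of 14202 genes tested, or 9.13%, with 528 higher in layer 6 (3.72%) and 768 lower (5.41%). An unadjusted p under 0.05 was found for 40.1% of the genes. Over all genes 1306 (9.20%) did not overlap between the 8 layer 6 and the 8 upper-layer profiles. Without nuclei with Slc17a6 or Tcf7l2 in either layer 1410 genes were called, 1191 of them among the 1296.

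Several of the genes with the largest rise mark corticothalamic neurons. Syt6 ran from 36.6 to 117 CPM in layer 6, with a median of 80.1, and from 1.94 to 6.46 in the upper layers (log2 fold change 4.53 ± 0.23 SE). Each SE of a log2 value here is its size divided by the square root of the F statistic of the test. It is an approximation, not a fitted standard error, and can be too small where counts are few. Hs3st4 ran from 1698 to 2445 CPM, with a median of 2026, against 109 to 222 (3.55 ± 0.10). Every layer 6 library lay above every upper-layer library for both genes. Zfpm2 ran from 666 to 1253 CPM against 66.5 to 143 (3.32 ± 0.14), and WT replicate 1 was its lowest library.

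Signalling and matrix genes were also among the 12 largest rises. Arhgap25, a GTPase-activating protein of Rac, had 57.3 to 93.7 CPM with a median of 79.1, against 0.996 to 5.43 in upper layers (log2 4.55 ± 0.17). Sla, a Src-like adaptor that damps receptor signalling, had 17.2 to 35.8 CPM against 1.29 to 1.94 (log2 4.1 ± 0.16). Ror2, a receptor for Wnt5a, had 11.4 to 48.5 CPM against 0.501 to 5.35 (log2 4.00 ± 0.18). For these 3 genes no upper-layer library reached the lowest layer 6 library. Thsd7b (log2 3.52), the actin-associated Rai14 (3.42), the fibrillar collagen Col5a1 (3.39) and the glycine receptor subunit Glra2 (3.16) rose without overlap as well. Ighm, the immunoglobulin mu heavy chain, had 6.87 to 41.7 CPM against 0.668 to 1.63 (log2 4.30 ± 0.17). Gm10635 had the largest estimate among genes of at least 20 CPM in the higher group, log2 5.08 ± 0.38, but its layer 6 libraries spread from 0 to 82.1 CPM and overlapped the upper layers.

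**Figure D2:**
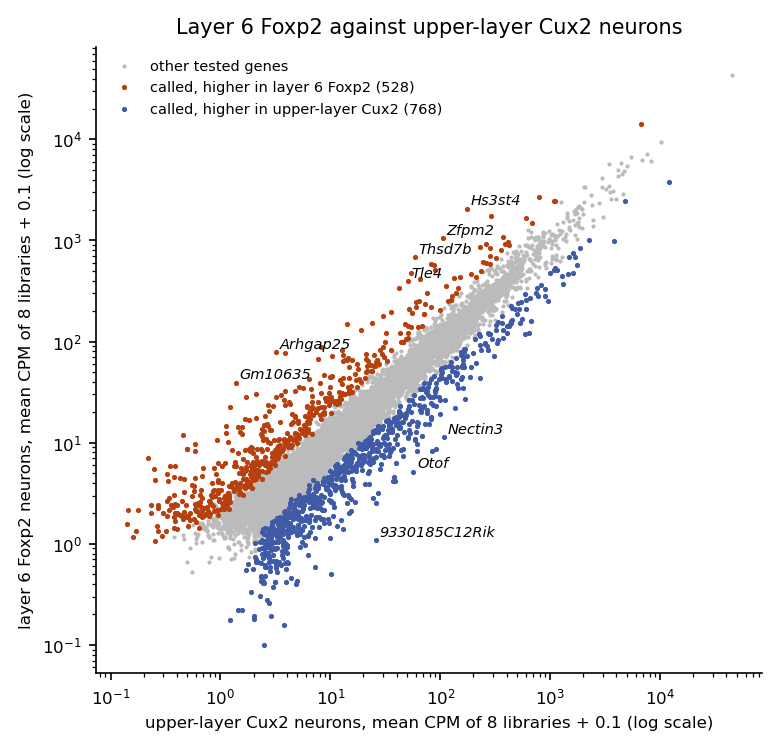
Mean level of each tested gene in layer 6 Foxp2 neurons against upper-layer Cux2 neurons over the 8 libraries, in CPM plus 0.1 on log axes. The 528 genes called higher and 768 called lower in layer 6 are coloured, and the remaining genes lie along the diagonal.

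Of the 11 corticothalamic markers 9 were called higher in layer 6, and the median difference of the list was 2.96 on the log2 scale. Tle4 stood at 334 to 457 CPM against 35.1 to 67.3 (2.96 ± 0.07), and Tbr1, the T-box factor that specifies layer 6 identity, at 22.8 to 38.6 against 9.72 to 15.4 (1.17). Grik3 (3.13), the extracellular sulfatase Sulf1 (2.65) and the thyroid hormone binding protein Crym (1.35) rose too. Sox5 (0.70 ± 0.07) and Ntsr1 (0.46 ± 0.11) passed the FDR threshold with differences under 2-fold. Ntsr1, the gene whose Cre line is used to reach these neurons, stood at only 9.22 to 14.5 CPM against 6.31 to 11, and its libraries overlapped. Rprm had a large estimate (5.75 ± 0.52) on few counts, at 0 to 19.1 CPM.

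Among 21 transcription factors of deep layers that were tested, 8 were called higher and 3 lower, with a list median of 0.60. The higher ones were Zfpm2, Fezf2 (3.08), Tle4, Nfia (2.84 ± 0.09), Bcl11b (2.02), Lmo3 (1.46), Nfib (1.26) and Tbr1. The lower ones were Cux1 (−1.81), Rorb (−1.24), which marks layer 4, and Mef2c (−1.12). The layer 5 extratelencephalic markers Fezf2, Bcl11b and Parm1 (1.34) were thus higher than in upper layers, whereas Pou3f1 was below the 2-fold limit on the low side (−0.77). Of the near-projecting markers Tshz2 (−0.58), Trhr (−0.68) and Vwc2l (−0.95) none was called, although Vwc2l passed at −1.16 without nuclei with Slc17a6 or Tcf7l2 and at −1.01 without both libraries that stood apart. All 4 layer 2/3 markers were called lower, with a median of −2.81: the calcium sensor Otof (−3.55 ± 0.12; 2.69 to 7.08 CPM against 41.9 to 69.8), the calcium buffer Calb1 (−3.16), Lamp5 (−2.46) and Cux1.

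The largest falls in layer 6 included adhesion and matrix genes of the upper layers. Nectin3, an adhesion molecule of cell contacts, had 4.03 to 16 CPM in layer 6 and 78.6 to 139 in the upper layers (log2 −3.38 ± 0.13). Ccbe1, a secreted calcium-binding protein, had 1.34 to 19.5 CPM against 61.0 to 121 (log2 −3.28 ± 0.21), and the matricellular Smoc2 had 2.69 to 17 against 51.0 to 112 (log2 −3.25 ± 0.18). These 3 genes did not overlap between the layers in any library. The non-coding 9330185C12Rik had the largest fall among genes of at least 20 CPM in the higher group (log2 −4.66 ± 0.24), with overlapping libraries, since it was at 0.0776 CPM in the upper-layer neurons of Cnp-/- 5xFAD replicate 2.

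Of 4 lists of receptors and channels 5 of 12, 3 of 20, 2 of 14 and 5 of 26 tested genes were called, against 9.13% of all genes. All but the first lie within a few genes of that background, and nothing particular to these short lists is read from the counts. In a list of 12 tested neuropeptide and modulator genes 3 were called higher. They were Chrna5, the accessory nicotinic subunit (4.29 ± 0.36), the orexin receptor Hcrtr2 (2.64 ± 0.24) and the serotonin receptor Htr1f (2.50 ± 0.08). Cck, which encodes cholecystokinin (−2.12 ± 0.24), and the neuropeptide Y receptor Npy1r (−1.93 ± 0.16) were called lower. Of 20 glutamate receptor genes Grik3 and Grm8 (1.24 ± 0.08) were called higher and Grm2 (−1.54 ± 0.16) lower, and the list median was −0.16. Of 14 GABA receptor genes none was called higher, and Gabra2 (−1.59 ± 0.09) and Gabrd (−1.14 ± 0.10) were called lower. Of 26 potassium, calcium and HCN channel genes only the calcium-activated Kcnn2 (1.11) was called higher, and Kcnb2 (−1.85), Kcnc2 (−1.85), Kcnh5 (−1.45) and Kcnq5 (−1.21) were called lower.

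Lists of general neuronal function differed little. None of 18 node, paranode and initial segment genes, 18 amyloid precursor genes, 16 vesicle release genes or 13 unfolded protein response genes was called. The cholesterol synthesis list had 17 of 17 estimates above 0, where 50.8% of all tested genes were, and 14 genes at an unadjusted p under 0.05 on the high side, where 19.4% of all were. Its median was 0.46, and 2 of its genes were called, the isoprenoid enzyme Idi1 (1.31) and the sterol sensor partner Insig1 (1.07). Of 20 immediate early genes Bdnf (−1.97 ± 0.14) and Dusp6 (−1.14) were called lower.

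Some calls fell in marker lists of other cells. The layer 6b markers Ccn2, a matricellular growth factor binding protein (4.89), and Cplx3, a complexin (3.03), were called higher. Ccn2 ran from 1.14 to 14.1 CPM against 0 to 1.11 in upper layers, and Cplx3 from 0 to 4.95 against 0 to 0.445. Both estimates rest on few counts. The striatal markers Drd1 (2.27), Rgs9 (1.72) and Ppp1r1b (1.01) were called higher, and the list summed to 41.7 to 69.3 CPM against 9.86 to 25.1. The 5 astrocyte markers summed to 374 to 605 CPM against 163 to 235. The astrocyte transporter Slc1a2 (1.24) was called higher and was found in 96.1% of members, whereas Slc1a3, Aqp4, Gja1 and Gfap were found in 4.31% of members or fewer. Tcf7l2 (1.74) was called higher, and its highest levels were in the WT libraries. The part of other cells in these calls was not tested.

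**Figure D3:**
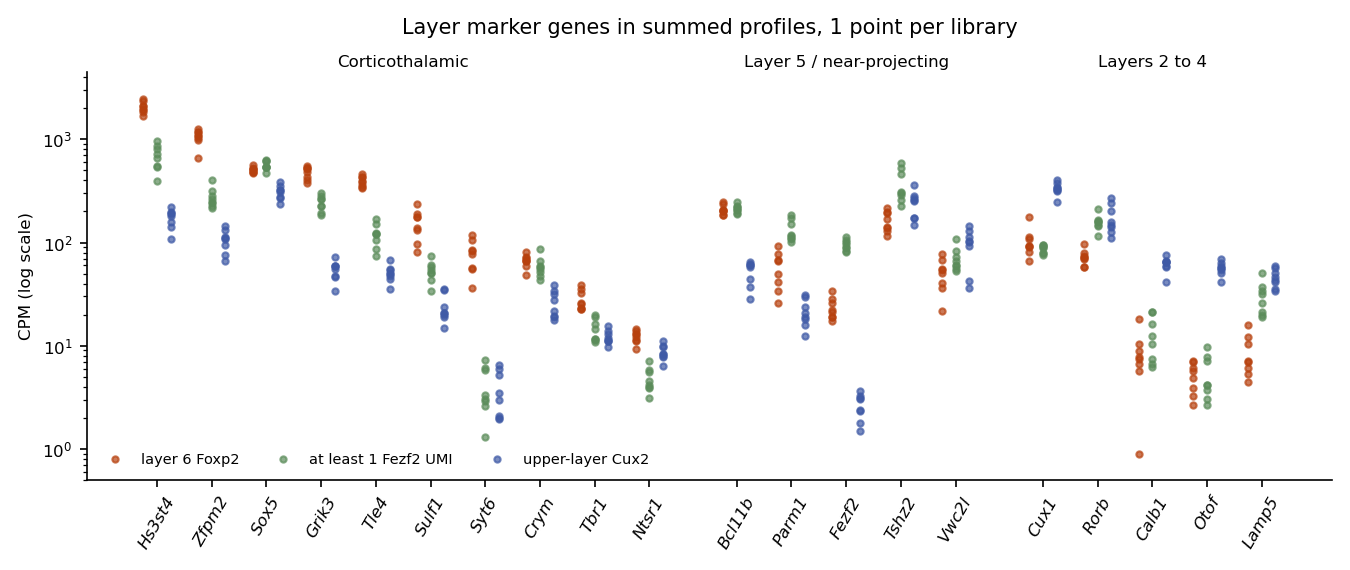
Level of 20 marker genes in each of the 8 libraries, in CPM on a log axis, for layer 6 Foxp2 neurons, neurons with at least 1 Fezf2 UMI and upper-layer Cux2 neurons. Syt6, Hs3st4, Zfpm2 and Tle4 separate the layer 6 libraries from both other groups, while Otof stands high in the upper-layer libraries.

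Deep-layer neurons with little or no Foxp2 (no more than 2 UMIs) gave a closer comparison. Fezf2 is the master regulator of subcerebral projection neurons of layer 5. The comparison planned with nuclei of at least 3 Fezf2 UMIs was not run, since only 61 nuclei met the rule and only 1 library held 10 of them. A minimum of 1 Fezf2 UMI, chosen after seeing the data, gave 932 nuclei with no more than 2 UMIs of Cux2 and of Foxp2 (71 to 172 per library). With Fezf2 also left out, 522 of 11870 genes were called (4.40%), 219 higher (1.84%) and 303 lower (2.55%) in the layer 6 Foxp2 neurons. An unadjusted p under 0.05 was found for 31.7% of the genes, and 440 (3.71%) did not overlap between the profiles. Without nuclei with Slc17a6 or Tcf7l2 in either group 594 genes were called, 449 of them among the 522.

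Syt6 was the sharpest difference between the deep-layer groups. It ran from 1.30 to 7.28 CPM in the nuclei with Fezf2, against 36.6 to 117 in layer 6 (log2 4.34). Col5a1 (3.24), Ighm (3.05), Ror2 (2.73), Sla (2.66), Arhgap25 (2.42), the axon guidance semaphorin Sema5a (2.16) and Zfpm2 (1.94; 214 to 400 CPM with Fezf2) also rose without overlap. Of the 11 corticothalamic markers 7 were called higher with a list median of 1.51, among them Tle4 (1.75), Hs3st4 (1.60), Sulf1 (1.51) and Ntsr1 (1.34). Grik3 (0.98) and Tbr1 (0.99) passed the FDR threshold just under 2-fold, and just over it without nuclei with Slc17a6 or Tcf7l2 (1.09 and 1.1). Grik3 was also just over 2-fold without both libraries that stood apart (1.03). Sox5 (−0.15) and Crym (0.18) were near 0. Chrna5 (2.02), Hcrtr2 (1.71) and Nfia (1.19) were higher here too.

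Of the 3 layer 5 extratelencephalic markers left beside Fezf2, Pou3f1 and Parm1 (−1.29) were called lower in the layer 6 Foxp2 neurons, and Bcl11b (−0.06) was not called. The POU factor Pou3f1 had 2.97 to 5.72 CPM in layer 6 and 17.6 to 33.4 with Fezf2 (log2 −2.22). Among genes of no marker list, the transcriptional repressor Bcl6 had 3.59 to 16.6 against 26.1 to 56.6 (log2 −2.15). Stac, an adaptor of calcium channels, had 2.24 to 14.9 CPM against 28.9 to 72.4 (log2 −2.67). All 3 were apart in every library. The sulfotransferase Chst8 (−2.30), the neuropeptide S receptor Npsr1 (−2.22), the ETS factor Etv1 (−1.63) and the T-type calcium channel Cacna1h (−1.49) were called lower as well. Of the near-projecting markers tested, Tshz2 (−1.16) was called lower, though not without both libraries that stood apart (−0.98, under 2-fold), whereas Vwc2l (−0.51) and Trhr (0.53) were not called. The cholesterol list had 6 of 17 estimates above 0, a median of −0.03 and no call in this comparison.

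Loss of Cnp changed few genes in the layer 6 Foxp2 neurons. The mean of both genotypes without Cnp was compared with the mean of both genotypes with it, in the same edgeR test over 11921 genes. 10 genes passed an FDR of 0.05, which is 0.0839% of those tested, and 766 had an unadjusted p under 0.05 (6.43%, with 2.44% higher and 3.98% lower). Adap1 rose (0.00839%) and 9 genes fell (0.0755%). The 4 libraries without Cnp and the 4 with it did not overlap for any of the 10, which held for 414 of all genes tested (3.47%).

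A830036E02Rik, a non-coding RNA expressed in neurons, was almost lost. It stood at 25.2 and 19.1 CPM in WT, 27.3 and 40.4 in 5xFAD, 0.406 and 0.991 in Cnp-/-, and 0.448 and 0 in Cnp-/- 5xFAD. The 4 libraries with Cnp held 192 UMIs of it and the 4 without held 3, a ratio of 79.6 per UMI sequenced (95% exact interval 26.8 to 389, counting error only). The fitted log2 fold change was −6.00 ± 0.45 (FDR 3.86e-04), where the SE, derived from the F statistic, is narrower than the counting interval. Krt12, a corneal keratin gene, stood at 18.3 and 9.83 CPM in WT, 14.5 and 26.1 in 5xFAD, 0.813 and 0.991 in Cnp-/-, and 0 and 1.06 in Cnp-/- 5xFAD (log2 −4.36 ± 0.55, FDR 0.0131). No library without Cnp came near the libraries with it for either gene. Both lie on chromosome 11 of mm10, A830036E02Rik on the plus strand at 99416956 to 99425497 and Krt12 on the minus strand at 99415666 to 99422259. The genes overlap on opposite strands, and the strand used in counting is not given in the sources used here, so their reads cannot be told apart with certainty. They lie 1.15 Mb from Cnp, which is at 100574904 to 100591729 on the same chromosome. Of 17 tested genes next to Cnp none passed. Hap1, chosen after its value was seen, had the smallest p of these (log2 −0.76, edgeR FDR 0.11).

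Adap1 encodes an ArfGAP that binds phosphoinositides. Over all nuclei of a cell type it averaged 112 CPM in neurons and 249 in mature oligodendrocytes. In the layer 6 Foxp2 neurons it stood at 72.1 and 78.0 CPM in WT, 80.4 and 86.0 in 5xFAD, 152 and 165 in Cnp-/-, and 156 and 146 in Cnp-/- 5xFAD. The level was about the same in all 4 libraries of each kind, and log2 rose by 0.99 ± 0.09 (FDR 0.00192). Adap1 lies on chromosome 5 (139271876 to 139325622, minus strand), not next to Cnp. Adap1 and A830036E02Rik were called under each of the 18 other settings tried, including the 8 that left out a library.

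The other 7 calls were falls of 0.97 to 1.85 on the log2 scale in genes of varied function. Unc13c, the Munc13-3 factor of vesicle priming, had 53.8 and 100 CPM in WT, 55.9 and 54.1 in 5xFAD, 33.7 and 18.8 in Cnp-/-, and 12.5 and 11.7 in Cnp-/- 5xFAD (log2 −1.81 ± 0.22, FDR 0.0131). Grik1, the GluK1 kainate receptor subunit, had 38.9 and 49.2 in WT, 54.2 and 44.3 in 5xFAD, 15 and 22.8 in Cnp-/-, and 20.2 and 16.6 in Cnp-/- 5xFAD (log2 −1.36 ± 0.17, FDR 0.0131). It was the only member of the functional lists that passed. Ank1, an ankyrin that ties membrane proteins to spectrin, had 97.3 and 78.7 in WT, 40.4 and 36.5 in 5xFAD, 24.8 and 19.8 in Cnp-/-, and 33.6 and 22.3 in Cnp-/- 5xFAD (log2 −1.17 ± 0.16, FDR 0.0249). For Ank1 the 5xFAD libraries lay close to Cnp-/- 5xFAD replicate 1, and most of the separation came from WT.

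Ust, a sulfotransferase of chondroitin and dermatan sulfate, had 83.5 and 88.5 CPM in WT, 72.2 and 84.7 in 5xFAD, 45.9 and 62.4 in Cnp-/-, and 30.9 and 25.1 in Cnp-/- 5xFAD (log2 −1.07 ± 0.13, FDR 0.0131). Npas3, a basic helix-loop-helix PAS factor, had 88.1 and 77.4 in WT, 69.0 and 59.3 in 5xFAD, 40.2 and 50.5 in Cnp-/-, and 31.8 and 28.6 in Cnp-/- 5xFAD (log2 −0.97 ± 0.13, FDR 0.0149). Both were lowest in the Cnp-/- 5xFAD libraries. Ptprz1, a receptor tyrosine phosphatase of astrocytes and oligodendrocyte precursors, had 49.2 and 34.4 in WT, 34.7 and 45.6 in 5xFAD, 11.8 and 25.8 in Cnp-/-, and 8.96 and 5.31 in Cnp-/- 5xFAD (log2 −1.85 ± 0.26, FDR 0.0249). Tspan9, a tetraspanin, had 34.3 and 31.3 in WT, 22.7 and 22.8 in 5xFAD, 13.8 and 11.9 in Cnp-/-, and 10.8 and 10.6 in Cnp-/- 5xFAD (log2 −1.17 ± 0.17, FDR 0.0362). Of the other settings tried, it was called only with DESeq2 size factors in edgeR and with no filter on low counts.

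These 7 falls were smaller without the nuclei that carry Slc17a6 or Tcf7l2. Without those nuclei 3 genes passed, A830036E02Rik, Adap1 and Krt12, and the fall of the others shrank. It was −1.25 for Unc13c, −1.04 for Ptprz1, −0.93 for Grik1, −0.74 for Ust, −0.68 for Ank1, −0.58 for Tspan9 and −0.22 for Npas3. This setting also took depth unevenly. WT replicate 1 went from 873800 to 583112 UMIs and 5xFAD replicate 1 from 2824538 to 2161713. Cnp-/- 5xFAD replicate 2 went from 2827381 to 2705775. The part of depth in the smaller falls was not tested. Each of the 7 genes averaged higher in a glial cell type than over all neurons. Ptprz1 averaged 2515 CPM in oligodendrocyte precursors and 1944 in astrocytes against 90.5 over all neurons. In precursors Unc13c averaged 593 against 112 over all neurons, Grik1 455 against 227 and Ank1 93.9 against 79.5. Npas3 averaged 3914 in astrocytes against 319 over all neurons, and Tspan9 260 against 42.7. Ust averaged 668 in newly formed oligodendrocytes against 97.6 over all neurons. The summed precursor markers in these nuclei were 1.41 to 5.94 CPM without Cnp and 0 to 11.7 with it, and the summed astrocyte markers were 443 to 605 and 374 to 599. The summed hippocampal markers were 149 to 237 CPM without Cnp and 268 to 365 with it, without overlap, while those of upper-layer neurons were 385 to 475 and 415 to 449. The part of any of these cells in the falls was not tested beyond these values. Settings other than this one also ended calls. Without both libraries that stood apart Ank1 (−1.02), Tspan9 (−1.08) and Npas3 (−0.97) were no longer called, with falls near those of all 8 libraries. With nuclei of 10000 to 40000 UMIs only A830036E02Rik and Adap1 passed, and with a Foxp2 minimum of 8 these and Ank1 and Unc13c. Krt12 did not pass under either (edgeR FDR 0.0609 and 0.092), nor without Cnp-/- replicate 1, without either 5xFAD library or without both libraries that stood apart, where its log2 fold change stayed between −4.56 and −4.15. The count was also 2 without 5xFAD replicate 1, 3 without Cnp-/- replicate 1, 3 without Cnp-/- 5xFAD replicate 2, 16 without Cnp-/- 5xFAD replicate 1, 25 without WT replicate 2, and 8 without both libraries that stood apart, 6 of them among the 10.

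The lists of neuronal function gave no other call under Cnp loss. Glutamate receptors had a median of −0.02, GABA receptors 0.02, potassium and calcium channels −0.04, vesicle release genes 0.03, and node and paranode genes 0.01, against a median near 0 over all genes. Axon injury genes, a list that includes Atf3, Jun and Gap43, had 1 of 7 tested estimates above 0, where 49.4% of all genes were, and a median of −0.35. That median was 0.02 with 4 of 8 above 0 without WT replicate 2, and −0.20 without Cnp-/- replicate 2 or 5xFAD replicate 2. Immediate early genes had 7 of 17 above 0 and a median of −0.02, which ran from −0.37 without Cnp-/- 5xFAD replicate 1 to 0.45 without WT replicate 2. The deep-layer transcription factors had 13 of 22 above 0 and a median of 0.08. Cholesterol synthesis genes had 2 of 17 above 0 and a median of −0.15. None passed, and 1 had an unadjusted p under 0.05. The summed corticothalamic markers were 4899 to 5429 CPM without Cnp and 3793 to 4894 with it, and WT replicate 1 was the lowest.

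**Figure D4:**
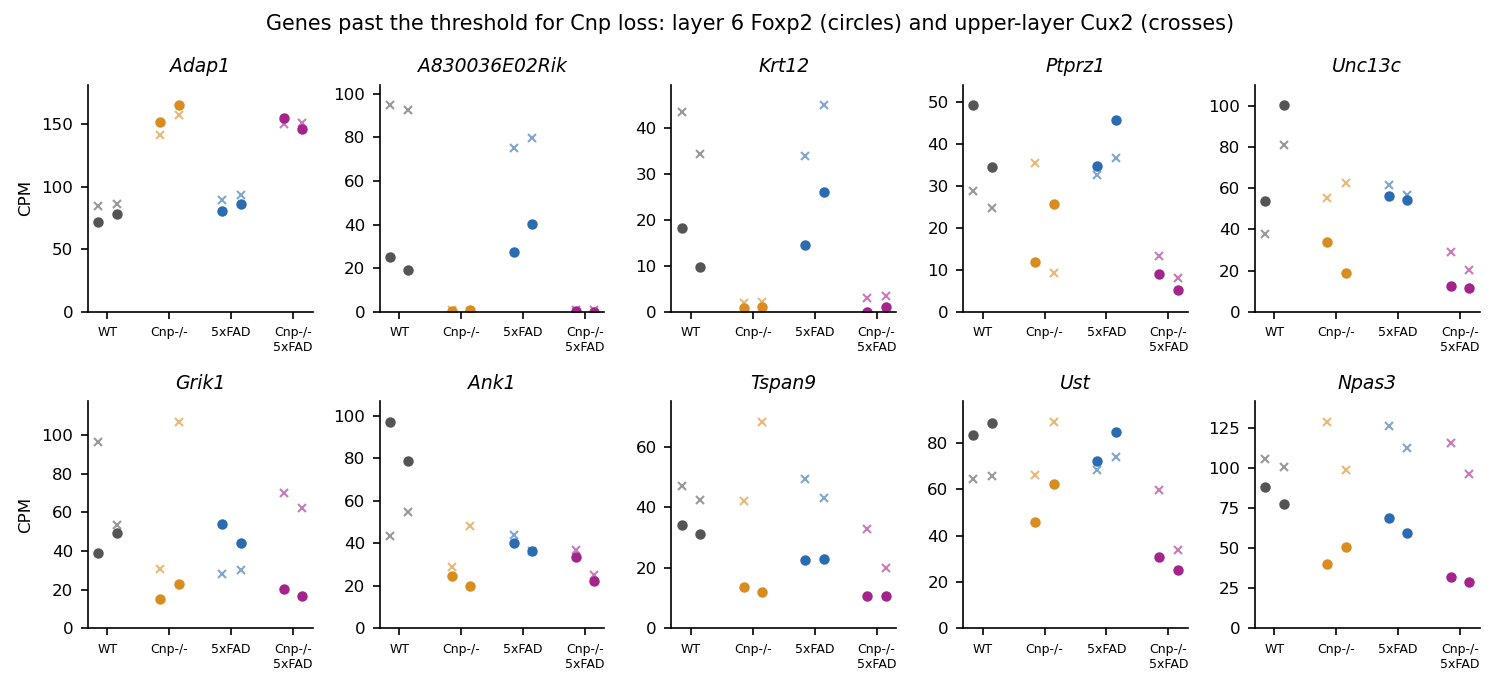
Level of the 10 genes past the threshold for Cnp loss in each of the 8 libraries, in CPM, with circles for layer 6 Foxp2 neurons and crosses for upper-layer Cux2 neurons. A830036E02Rik and Krt12 are near 0 without Cnp in both layers and Adap1 is higher without Cnp in both, whereas the upper-layer values of Npas3 and Ust overlap between the genotypes.

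Upper-layer neurons of the same libraries were fitted in the same way, and 4 of 15327 genes passed (0.0261%), 1 higher (0.00652%) and 3 lower (0.0196%). They were A830036E02Rik (log2 −6.68 ± 0.16), Krt12 (−3.90), its neighbour Krt20 (−4.19) and Adap1 (0.79 ± 0.06). Krt20 did not pass the filter on low counts in the layer 6 fit and was not tested there. Its Cnp effect differed between the layers by −2.36 ± 1.97, which did not pass. A830036E02Rik stood at 94.8 and 92.8 CPM in upper-layer neurons of WT, 75.3 and 79.8 in 5xFAD, 1.00 and 0.223 in Cnp-/-, and 1.01 and 0.854 in Cnp-/- 5xFAD. The difference of its Cnp effect between the layers was 0.32 ± 1.14 (edgeR FDR 1), and that of Adap1 was 0.21 ± 0.09 (FDR 0.98).

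A direct test of the difference found 5 of 14208 genes whose Cnp effect was more negative in layer 6 than in the upper layers (0.0352%), and none the other way. 721 genes had an unadjusted p under 0.05. Slit2, the ligand of Robo receptors, stood at 212 and 114 CPM in WT, 161 and 134 in 5xFAD, 95.5 and 110 in Cnp-/-, and 81.6 and 64.4 in Cnp-/- 5xFAD. In upper layers it had 210 and 132, 198 and 149, 167 and 170, and 198 and 166 in the same order. Its layer 6 libraries without Cnp were all below those with it, while the upper-layer libraries overlapped, and the effects differed by −0.86 ± 0.11 on the log2 scale (FDR 0.0187). The others were Npas3 (−0.98 ± 0.13, FDR 0.0187), Ust (−0.87 ± 0.12, FDR 0.0226), Thsd7a, which encodes a thrombospondin-type membrane protein (−1.15 ± 0.17, FDR 0.0333), and Shisa6, an auxiliary subunit of AMPA receptors (−0.94 ± 0.15, FDR 0.0442). None of the 5 passed when both kinds of nuclei were limited to 10000 to 40000 UMIs, or when either 5xFAD library was left out, and 15 genes passed without WT replicate 2. None passed without both libraries that stood apart, or when nuclei with Slc17a6 or Tcf7l2 were left out of both layers, a setting added after seeing the data (0 of 13814 genes, 499 at an unadjusted p under 0.05). There the difference was −0.46 for Npas3, −0.58 for Ust and −0.68 for Thsd7a (FDR 1 each), and −0.88 for Slit2 and −1.0004 for Shisa6 (FDR 0.112 each). Without both libraries that stood apart it was −1.03 for Npas3, −0.86 for Ust, −0.91 for Thsd7a, −0.91 for Slit2 and −0.94 for Shisa6.

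The 5xFAD transgenes gave no gene past the threshold in the layer 6 Foxp2 neurons (0 of 11921, edgeR). An unadjusted p under 0.05 was found for 602 genes (5.05%, with 2.51% higher and 2.54% lower), and DESeq2 called 1 gene. The 4 libraries with and the 4 without 5xFAD did not overlap for 343 genes (2.88%). The 5 genes with the smallest p were Abi3bp, Zfp536, Tmem132c, Gm2516 and Wscd2, each with an FDR of 0.527. Abi3bp, a secreted protein of the matrix, had 180 and 90.3 CPM in WT, 71.1 and 136 in Cnp-/-, 25.5 and 61.9 in 5xFAD, and 20.6 and 24.4 in Cnp-/- 5xFAD (log2 −1.89 ± 0.31). All libraries with 5xFAD were below all without it.

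Genes of amyloid precursor processing gave small estimates. App had a log2 difference of −0.06, and the 18 genes of amyloid precursor processing had a median of −0.02. Thy1, whose promoter drives the transgenes, was named after its values were seen. It stood at 25.2 and 54.1 CPM in WT, 33.7 and 21.8 in Cnp-/-, 66.2 and 55.4 in 5xFAD, and 88.7 and 66.1 in Cnp-/- 5xFAD (log2 0.96 ± 0.21, edgeR FDR 0.538). The layer 6 libraries with and without 5xFAD did not overlap, although WT replicate 2 lay just under 5xFAD replicate 2. In nuclei with Fezf2 it had 37.1 and 42.6 in WT, 38.4 and 24.1 in Cnp-/-, 108 and 106 in 5xFAD, and 87.4 and 50.3 in Cnp-/- 5xFAD. In upper-layer neurons it had 34.6 and 33.6, 35.6 and 29.8, 44.2 and 32.5, and 15.1 and 9.32 in the same order (log2 −0.65, FDR 0.797). The effects in layer 6 and the upper layers differed by 1.64 ± 0.38 (edgeR FDR 0.697), which did not pass the correction.

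Cholesterol synthesis genes all leaned upward with 5xFAD. The 17 listed genes encode enzymes from Hmgcs1 onward and regulators of the pathway such as Insig1 and Srebf2. None passed the FDR threshold, but 17 of 17 estimates were above 0, where 50.4% of all genes tested were, and 13 had an unadjusted p under 0.05 on the high side, where 2.51% of all genes did. The list median was 0.58 and that of all genes 0.002. The list drew attention in these data, so its counts are a description and carry no test. Layer 2/3 markers also moved with 5xFAD in these nuclei, at a sum of 74.8 to 111 CPM with it and 113 to 211 without it, and their part in this was not tested.

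Msmo1, the sterol C4-methyl oxidase, had 24.0 and 20.9 CPM in WT, 22.8 and 1.98 in Cnp-/-, 40.0 and 48.2 in 5xFAD, and 43.9 and 34.3 in Cnp-/- 5xFAD (log2 1.14 ± 0.32, edgeR FDR 0.705). Hmgcs1, which makes HMG-CoA at the head of the pathway, had 34.3 and 35.6 in WT, 31.3 and 2.97 in Cnp-/-, 49.6 and 55.4 in 5xFAD, and 57.4 and 43.9 in Cnp-/- 5xFAD (log2 0.90 ± 0.31, edgeR FDR 0.893). Both were lowest by far in Cnp-/- replicate 2, and the other 3 libraries without 5xFAD also lay below all 4 with it. Insig1, which holds SREBP in the endoplasmic reticulum, had the largest difference (log2 1.36 ± 0.47), at 1.14 and 10.4 CPM in WT, 10.2 and 0.991 in Cnp-/-, 20.5 and 15 in 5xFAD, and 23.3 and 12.7 in Cnp-/- 5xFAD. Its libraries likewise did not overlap, although WT replicate 1 and Cnp-/- replicate 2 held only 1 UMI of it each. The libraries of 13 of the 17 genes overlapped, among them those of Sc5d, which had the smallest difference (0.25), and Idi1 (1.25). Of all genes tested 2.88% did not overlap.

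Summed over the list, the level was 532 and 508 CPM in WT, 479 and 364 in Cnp-/-, 715 and 720 in 5xFAD, and 788 and 544 in Cnp-/- 5xFAD. The mean was 692 ± 104 (SD, n = 4) with 5xFAD and 471 ± 74.7 (SD, n = 4) without it, and the lowest library with 5xFAD lay just above the highest without. All estimates were above 0 under each of the other settings, with a list median between 0.417 and 0.684. Without the libraries that stood apart, WT replicate 1 and Cnp-/- replicate 2, the median was 0.56 and 7 genes had an unadjusted p under 0.05. Without Cnp-/- 5xFAD replicate 1 that number was 5. Members passed the FDR threshold under 2 of the other settings, 2 of them without Cnp-/- replicate 1 and 4 with no filter on low counts.

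The same lean was seen in upper-layer neurons, where 17 of 17 estimates were above 0, 8 had an unadjusted p under 0.05, and the median was 0.41. Of all genes tested there, 5.85% had such a p, 2.94% on the high side and 2.91% on the low side. The summed level there was 439 and 385 CPM in WT, 349 and 337 in Cnp-/-, 480 and 532 in 5xFAD, and 516 and 373 in Cnp-/- 5xFAD, and the groups overlapped. The test of the difference of effects gave 16 of 17 estimates above 0 with a median of 0.19, and none passed the FDR threshold, so a larger lean in layer 6 was not shown for single genes.

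**Figure D5:**
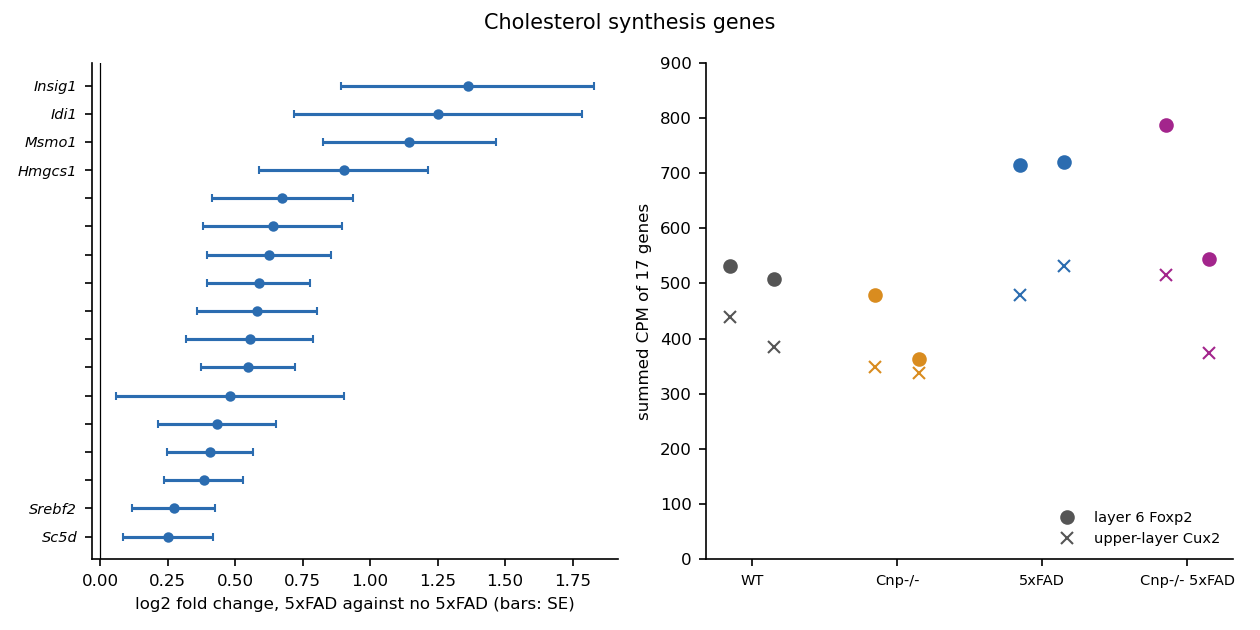
Cholesterol synthesis genes and 5xFAD. The left panel shows the log2 difference with its SE, derived from the F statistic, for the 17 genes in layer 6 Foxp2 neurons. They are ordered by size with 6 of them named, all above 0 and none past the FDR threshold. The right panel shows the summed level in CPM in each library, with circles for layer 6 (364 to 788) and crosses for upper-layer neurons (337 to 532).

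Across the remaining lists no gene passed for 5xFAD. Synaptic vesicle genes had a median of −0.01, node and paranode genes −0.02, glutamate receptors −0.02, GABA receptors 0.00, and potassium and calcium channels −0.06 with 19 of 26 below 0. Immediate early genes had a median of −0.14 and axon injury genes −0.07, and the sign of both rested on single libraries. For immediate early genes the median was 0.28 without WT replicate 2, 0.10 without Cnp-/- replicate 1, 0.07 without Cnp-/- 5xFAD replicate 2 and −0.33 without Cnp-/- 5xFAD replicate 1. For axon injury genes it ran from −0.08 without Cnp-/- 5xFAD replicate 1 to 0.31 without WT replicate 2. The cytosolic heat shock list had 3 of 5 tested estimates above 0 and a median of 0.24, and all 12 listed genes summed to 175 to 218 CPM with 5xFAD and 121 to 189 without it. Of these genes Hsp90aa1 (1.17) and Hsp90ab1 (0.60), named after their values were seen, had an unadjusted p under 0.05 and did not pass. No gene had a 5xFAD effect that differed between layer 6 and upper-layer neurons at an FDR of 0.05 (edgeR, 633 of 14208 genes at an unadjusted p under 0.05).

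No gene passed the threshold for an effect of losing Cnp that differed with the transgenes (0 of 11921 in edgeR). DESeq2 called 20 of the 3336 genes over which it adjusted. In edgeR 654 genes had an unadjusted p under 0.05 (5.49%, with 2.44% above and 3.05% below 0). The smallest p belonged to Sulf1, a marker of these neurons, which had 96.1 and 81.7 CPM in WT, 176 and 177 in Cnp-/-, 189 and 238 in 5xFAD, and 131 and 138 in Cnp-/- 5xFAD (interaction −1.64 ± 0.21, FDR 0.0987). Its mean was thus lowest in WT, and that of the double genotype lay between WT and either genotype alone, although the interaction did not pass. Maml3, a coactivator of Notch, showed the mirror pattern, with 191 and 216 CPM in WT, 116 and 125 in Cnp-/-, 112 and 93.2 in 5xFAD, and 186 and 152 in Cnp-/- 5xFAD (1.5 ± 0.21, FDR 0.101). Homer1, a postsynaptic scaffold with an activity-induced form, had 486 and 438 in WT, 303 and 313 in Cnp-/-, 258 and 215 in 5xFAD, and 507 and 346 in Cnp-/- 5xFAD (1.45 ± 0.24, FDR 0.197). The ephrin receptor Ephb1 (1.27 ± 0.21) and the peptidase Trhde (1.47) followed at an FDR of 0.197. Of 17 tested immediate early genes 12 had an interaction below 0, where 50.3% of all genes lay above it, with a median of −1.33, and none passed. That median was −0.56 without Cnp-/- 5xFAD replicate 2 and −2.48 without WT replicate 2. Egr1 had 0 and 2.46 CPM in WT, 13.4 and 2.97 in Cnp-/-, 20.5 and 16.3 in 5xFAD, and 10.3 and 7.78 in Cnp-/- 5xFAD (−3.58), which rests on few counts in WT.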

How the data were processed

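Deposited data were raw UMI counts per gene and nucleus from 8 libraries, with a cell type per nucleus. Per the study's methods, the authors made these counts with Cell Ranger 6.1.2 on mm10, removed ambient transcripts with CellBender, filtered nuclei on genes and UMIs and dropped clusters of undefined identity. Intronic counting, counting strand and doublet treatment are not given in the sources used here, and no doublet caller was run. The summed counts of all 61949 nuclei equalled the deposited totals. Tables of microglia were not used.

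Members and gene lists were chosen with earlier results of these data known. Counts were summed per library and tested with edgeR 4.0.16 (filterByExpr, TMM, glmQLFit, glmQLFTest; R 4.3.3; DESeq2 1.42.0 and limma 3.58.1 also loaded), with 1 mean per genotype, all 8 libraries sharing the spread, and Benjamini-Hochberg adjustment over all genes tested. Layer comparisons kept the library as a block. DESeq2 fits of the genotype effects took 22700 genes, without the edgeR filter. They were adjusted over 14524 genes for Cnp loss, 22700 for 5xFAD and 3336 for the interaction, so their counts do not share a base with those of edgeR. Shares were compared by exact permutation of libraries (SciPy 1.17.1). The tests were tested on simulated data, with 200 genes changed. Alternatives covered scaling, the filter on low counts, DESeq2, replicate number, Foxp2 minimum, depth, nuclei number, members with Slc17a6 or Tcf7l2, and each library left out. Ranges of CPM use raw library totals. Positions are from GENCODE for mm10, where 89 of 89 names matched.

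Named genes were, for genotype effects, the 10 largest rises and falls past the threshold whose libraries do not overlap. With fewer than 3, the 5 smallest p-values were named, and for differences of effects and the interaction the 5 smallest. For layers they were the 12 largest rises and falls with at least 20 CPM in the higher group, of which those with a role stated are given. List members were added. Some genes of the lists are counted but not reported here by name.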

Additional observations from a re-analysis of the deposited data

Results flagged for a closer look

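In 5 of 44 groups of 4 libraries checked, 1 library lay far from the other 3 by Dixon's test, where chance alone gives about 5% of groups. Among the libraries with Cnp, WT replicate 2 stood out for Unc13c at 100 CPM against 53.8 to 55.9, with a gap of 0.954 of the group's range. Among the libraries with 5xFAD, 5xFAD replicate 2 stood out for Abi3bp at 61.9 CPM against 20.6 to 25.5, with a gap of 0.882. In the same libraries Cnp-/- 5xFAD replicate 2 was low for Wscd2 at 49.2 CPM against 69.5 to 73.6 (0.830). The share of layer 6 Foxp2 neurons was low in 5xFAD replicate 2 at 2.00% against 3.53% to 3.76% (0.869). Among the libraries without 5xFAD, WT replicate 1 was high for Gm2516 at 83.5 CPM against 29.7 to 31.3 (0.969).

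The Cnp effect differed between layer 6 Foxp2 and upper-layer neurons for 5 genes by a test of the difference itself, on the log2 scale −0.86 for Slit2, −0.98 for Npas3, −0.87 for Ust, −1.15 for Thsd7a and −0.94 for Shisa6. Thsd7a had 105 and 69.4 CPM in layer 6 of WT, 40.7 and 71.7 in 5xFAD, 48.8 and 60.4 in Cnp-/-, and 25.1 and 29.4 in Cnp-/- 5xFAD, so its layer 6 libraries with and without Cnp overlapped. Shisa6 had 122 and 120 in WT, 127 and 109 in 5xFAD, 97.9 and 99.1 in Cnp-/-, and 65.0 and 31.5 in Cnp-/- 5xFAD, without overlap. None of the 5 passed once nuclei with Slc17a6 or Tcf7l2 were left out of both layers, where the differences were −0.88 for Slit2, −0.46 for Npas3, −0.58 for Ust, −0.68 for Thsd7a and −1.0004 for Shisa6.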

How the results depend on the processing

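The count of genes changed by Cnp loss was 10 in the report. It was 256 with no filter on low counts (233 of them past the filter of the report), 23 with DESeq2, 5 with a Foxp2 minimum of 3, 4 with a minimum of 8, 2 with nuclei of 10000 to 40000 UMIs and 3 without nuclei with Slc17a6 or Tcf7l2, and 2 to 25 with a library left out. For 5xFAD it was 204 with no filter, 2 with equal nuclei per library and 1 with DESeq2, and 0 to 4 with a library left out. For the interaction it was 145 with no filter and 20 with DESeq2, and 0 to 2 with a library left out. Differences of the Cnp effect numbered 141 with no filter and 0 by depth (0 to 15 with a library left out), and those of the 5xFAD effect 81 and 1 (0 to 1). Without nuclei with Slc17a6 or Tcf7l2 in either layer, added after seeing the data, they numbered 0 and 1 (Sema5a, 1.73, edgeR FDR 0.018), and 0 and 0 without both libraries that stood apart. Why the unfiltered fits called more was not tested. Layer 6 against upper layers gave 1209 to 1364 genes with a library left out. Against nuclei with Fezf2 it gave 340 without the library block and 480 to 561 with a library left out. With a library left out the share differences ran from 0.193 to 1.16 points for Cnp loss and from 1.06 to 1.79 for 5xFAD. Among all nuclei they were 0.553 and 0.790, among glutamatergic neurons 1.27 and 2.22, and after thinning 1.00 and 0.543.

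Replicate numbers did not pair the libraries, since deviations of same-numbered libraries correlated at −0.21 to 0.162. With the replicate block 9 genes passed for Cnp loss, 8 of them among the 10, and 0 for 5xFAD and the interaction, and the shares gave exact p = 0.556 and 0.111. The direction turned for Nr4a2 against upper layers (−0.313 with a Foxp2 minimum of 8, −0.0113 without Cnp-/- 5xFAD replicate 1, −0.0136 without both libraries that stood apart, and up to 0.271 with another library left out), for Bcl11b against nuclei with Fezf2 (0.00682 without nuclei with Slc17a6 or Tcf7l2), and for Otof against the same (0.409 by depth, 0.0783 and 0.0745 without 5xFAD replicate 1 or 2, and down to −0.192 with another library left out). Libraries with 53 and 96 members limit the depth.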
